A study of Mus musculus with 12 samples.

Results

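The 10 genes described here, Nlrp3, Nlrc4, Aim2, Nlrp10, Pycard, Casp1, Casp4, Gsdmd, Gsdma and Il18, encode sensors, an adaptor, caspases, gasdermins and a cytokine of the inflammasome pathway. They were taken by symbol from the 52636 genes of the count table, and all 10 were listed and passed the filter that left 17993 genes tested. Counts came from whole skin of female BALB/c mice aged 6 to 8 weeks, wild type in every group, with 3 libraries in each of 4 groups (12 in all). Control mice served as the baseline and received no LL37. In the study's methods the back skin was injected with either LL37 or a control vehicle. Its figure legend says that the control and LL37 mice compared were given vehicle where others had RAPA. LL37 mice were injected in the back skin over 2 days with LL37, the active peptide of human cathelicidin, which gives a rosacea-like inflammation. Control + RAPA and LL37 + RAPA mice were also given RAPA (rapamycin, which inhibits mTORC1, a kinase complex that drives cell growth), at a dose that the study's methods give as 4 mg/kg per day for BALB/c mice. The peptide is given from outside for a short time, so the model is acute and local. The study describes 3 independent biological samples per group.

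An inflammasome is a protein complex that assembles in the cytosol after a sensor detects microbial products or cell damage. Through the adaptor ASC it activates caspase-1, which matures the interleukin-1β and interleukin-18 precursors and cleaves gasdermin D, whose fragment forms pores in the plasma membrane and can end in pyroptosis, a lytic cell death. Much of this control lies in protein assembly and cleavage, which transcript counts do not measure. In skin, keratinocytes store interleukin-18 and interleukin-1α, whereas myeloid cells supply most NLRP3 and interleukin-1β.

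Depth was 15734559 to 23271784 counts per library, at which a floor of 3 counts equals 0.123 to 0.184 CPM (counts over library total, TMM-scaled), for counting error only. LL37 replicate 3 stood apart from the rest of its group on the first principal component of log2 CPM, which held 68.3% of the variance (64.4 against 133 and 129). The shares of counts held by several cell type marker lists also differed between the groups. A list of 10 neutrophil markers, 8 of them tested, held Ly6g, Cxcr2, Csf3r, Mmp8, Retnlg, Ngp, S100a8, S100a9, Clec4d and Cd177. Its share was summed over the list, so the most abundant markers weighed most. The list took 0.00106 to 0.00804% of counts in control, 0.00171 to 0.00343% in control + RAPA and 0.0108 to 0.0425% in LL37 + RAPA. It took 0.188%, 0.268% and 0.0293% in LL37 replicates 1, 2 and 3, and its only marker at 0 throughout a group was Ly6g, in control + RAPA. The 10 macrophage and monocyte markers took 0.0673 to 0.113% in control, 0.0636 to 0.0806% in control + RAPA, 0.194 to 0.275% in LL37 and 0.182 to 0.312% in LL37 + RAPA. The 15 skeletal muscle markers took 3.26 to 4.69% in control, 3.47 to 5.86% in control + RAPA, 0.00303 to 0.0800% in LL37 and 0.299 to 0.670% in LL37 + RAPA, with Tnnc2 at 0 throughout LL37. The 6 basal keratinocyte markers, all detected in each group as skin requires, took 1.165 to 1.65%, 1.14 to 1.39%, 2.15 to 2.22% and 1.55 to 1.74% in the same order of groups. The part of these shifts in the results below was not tested, and in bulk skin a change in the number of cells of a type cannot be told apart from a change in RNA per cell.

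Of the 10 genes, 6 rose in LL37 vs control and 0 fell (edgeR quasi-likelihood test, Benjamini-Hochberg adjusted p under 0.05 over all tested genes), namely Nlrp3, Casp4, Nlrc4, Gsdmd, Gsdma and Casp1. Over all tested genes 42.6% passed this test and 21.0% passed it with a higher level in LL37. Nlrp3, Casp4 and Nlrc4 also passed the study's limit of 1 on the absolute log2 fold change, as did 19.5% of all genes. In 6 of the 10 genes the LL37 and control libraries did not overlap, against 49.7% of all genes. The median log2 fold change was 0.68 over the 10 genes and −0.005 over all genes tested. In LL37 vs LL37 + RAPA, 5 of the 10 genes were called, all higher in LL37 (Gsdma, Casp4, Gsdmd, Il18 and Casp1), where 24.2% of all genes were called and 11.8% were called higher. Of these, Casp4 and Gsdma passed the fold limit (10.1% of all genes), and 3 genes did not overlap between the groups (38.3% of all genes). The median was 0.60 over the 10 genes and −0.004 over all genes. Both comparisons use the same LL37 libraries, so they are not independent of each other.

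**Figure D1:**
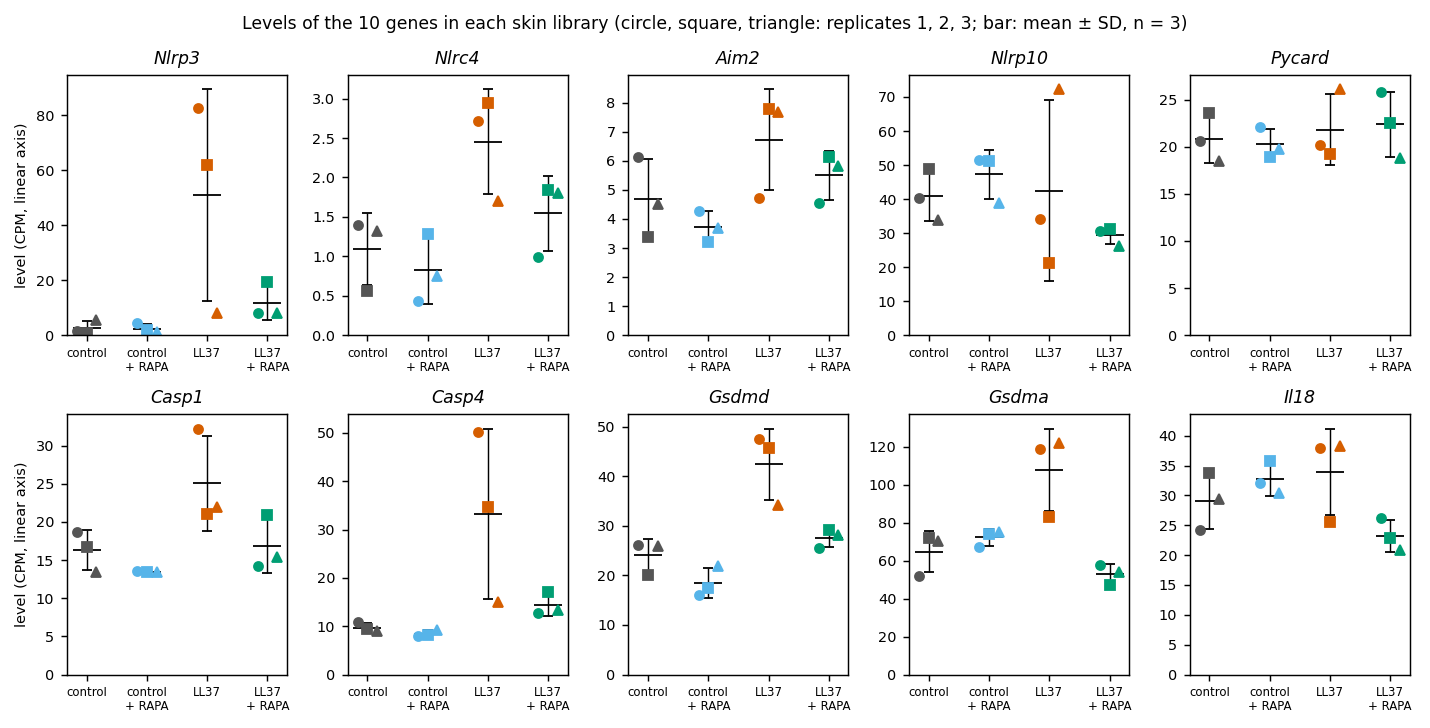
Level in CPM on a linear axis from 0 (vertical) for each of the 10 genes in the 12 libraries by group (horizontal); circles, squares and triangles are replicates 1, 2 and 3, and black bars give the mean ± SD (n = 3). Nlrp3 and Casp4 were high in LL37 replicates 1 and 2 (82.6 and 62.0, 50.1 and 34.7 CPM) and lower in replicate 3 (8.05 and 14.9 CPM), whereas Gsdma in every LL37 library lay above every other library.

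Among the sensors, Nlrp3, which responds to ion fluxes and membrane damage and is induced in myeloid cells before it is activated, showed the largest difference of the 10 genes. Its level was 1.67, 0.820 and 5.69 CPM in control, 4.28, 1.73 and 1.09 CPM in control + RAPA, 82.6, 62.0 and 8.05 CPM in LL37, and 8.16, 19.2 and 8.02 CPM in LL37 + RAPA (replicates 1 to 3 of each group). Every LL37 library lay above every control library, but LL37 replicate 3 lay within the LL37 + RAPA range. The log2 fold change of LL37 vs control was 4.22 ± 0.89 (SE; adjusted p = 0.00276, edgeR), an 18.6-fold difference, and it held in each of 20 alternative fits, between 3.68 and 5.33. In LL37 vs LL37 + RAPA it was 2.10 ± 0.78 with adjusted p = 0.0703 (edgeR), and without LL37 replicate 3 it was 2.61 with adjusted p = 0.00511, in a range of 0.00511 to 0.243 over the alternatives. The 2 LL37 libraries with the highest Nlrp3 were the 2 with the highest share of neutrophil markers. LL37 replicate 3 had a neutrophil share (0.0293%) and an Nlrp3 level (8.05 CPM) within those of the LL37 + RAPA libraries.

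**Figure D2:**
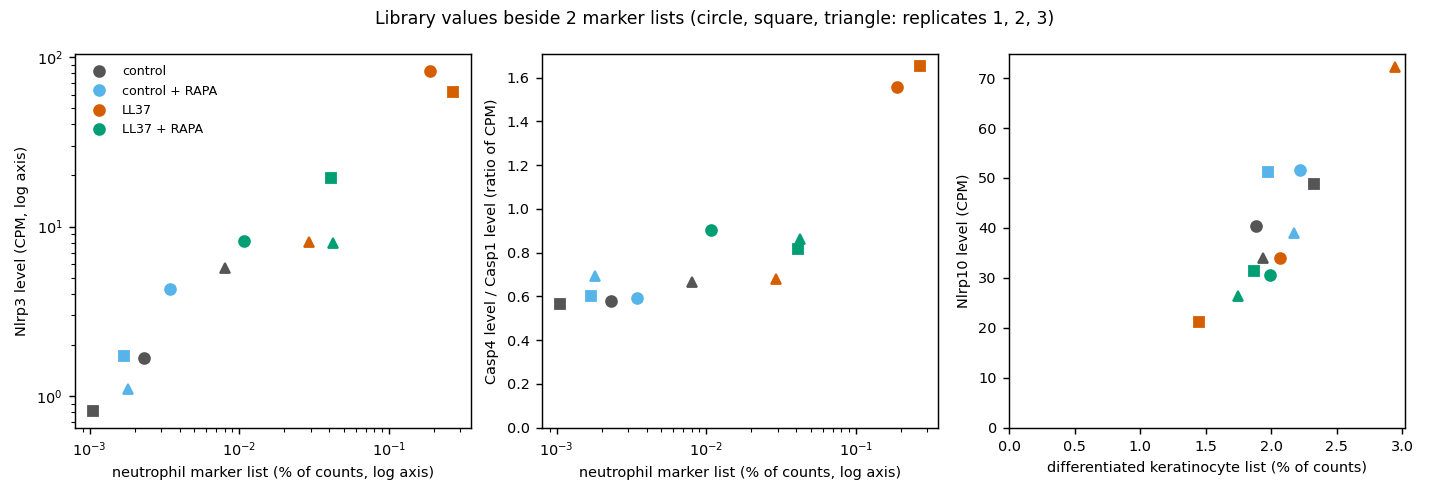
Each point is 1 of the 12 libraries (colour, group; circle, square and triangle, replicates 1, 2 and 3): Nlrp3 in CPM against the neutrophil marker list in % of counts (left, both axes logarithmic), the ratio of Casp4 to Casp1 against the same list (middle, horizontal axis logarithmic), and Nlrp10 in CPM against the differentiated keratinocyte list in % of counts (right, linear axes). LL37 replicates 1 and 2 stand apart at neutrophil shares of 0.188 and 0.268%, and LL37 replicate 3 has both the highest Nlrp10 (72.3 CPM) and the highest differentiated keratinocyte share (2.94%).

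The genes whose profile over the 12 libraries was most like that of Nlrp3, among 17959 genes compared, were Samsn1, Klra2 and Cd14. Their mean absolute differences from Nlrp3 in centred log2 CPM were 0.399, 0.417 and 0.438. Cd14, a co-receptor for bacterial lipopolysaccharide, was at 539, 496 and 53.6 CPM in LL37 replicates 1, 2 and 3 and at 11.4 to 29.6 CPM in control. Each of these 3 genes was thus also much lower in LL37 replicate 3 than in the other 2 LL37 libraries.

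Nlrc4, the sensor engaged by NAIP proteins that bind bacterial flagellin and secretion-system parts, was near the lower end of detection. Its level was 1.40, 0.564 and 1.32 CPM in control, 0.434, 1.28 and 0.748 CPM in control + RAPA, 2.72, 2.94 and 1.70 CPM in LL37, and 0.996, 1.84 and 1.80 CPM in LL37 + RAPA. These levels rest on 8 to 50 counts per library. LL37 exceeded control in every library, with a log2 fold change of 1.157 ± 0.43 and an adjusted p of 0.04996 (edgeR) that lies just under the threshold. The call was lost in 13 of 19 alternatives, among them a fit without control replicate 2, where the log2 fold change was 0.82 with adjusted p = 0.163, the highest of a range from 0.0240. In LL37 vs LL37 + RAPA the groups overlapped, and the log2 fold change was 0.65 ± 0.42 (adjusted p = 0.276, edgeR).

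Aim2, a sensor of DNA in the cytosol, did not pass the test in these comparisons. Its level was 6.15, 3.38 and 4.53 CPM in control and 4.74, 7.78 and 7.68 CPM in LL37, so LL37 replicate 1 lay within the control range and the other 2 above it. LL37 vs control gave a log2 fold change of 0.52 ± 0.26 (adjusted p = 0.123, edgeR). Without LL37 replicate 1 it was 0.72 with adjusted p = 0.0479, the lowest of its alternatives, which reached 0.384. In control + RAPA and LL37 + RAPA, Aim2 was at 3.21 to 4.28 and 4.55 to 6.14 CPM.

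Nlrp10, an NLR protein without leucine-rich repeats that is made in the epidermis, had a different profile from the other sensors. It was at 40.4, 48.8 and 33.9 CPM in control and 51.6, 51.3 and 38.9 CPM in control + RAPA. In LL37 it was at 34.0, 21.2 and 72.3 CPM, which spans the whole range of the 12 libraries, and in LL37 + RAPA at 30.6, 31.4 and 26.3 CPM. The log2 fold change of LL37 vs control was 0.05 ± 0.34 (adjusted p = 0.912, edgeR). Without LL37 replicate 3 it was −0.54 with adjusted p = 0.0555, the lowest of the alternatives, which reached 0.982. LL37 replicate 3 was also the library with the largest share of 8 differentiated keratinocyte markers (2.94% of counts, against 2.06% and 1.45% in LL37 replicates 1 and 2). The gene most like Nlrp10 was Alox12b, a lipoxygenase needed for the lipid barrier of the epidermis, with a mean absolute difference of 0.105, followed by Frmpd1 at 0.146 and Asah2 at 0.147. Alox12b ran at 99.9, 63.1 and 154 CPM in the 3 LL37 libraries.

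Pycard encodes ASC, the adaptor that links sensors to caspase-1. It differed little between groups, at 18.4 to 23.5 CPM in control, 18.9 to 22.1 CPM in control + RAPA, 19.2 to 26.1 CPM in LL37 and 18.8 to 25.8 CPM in LL37 + RAPA. All 4 groups overlapped. The log2 fold change was 0.07 ± 0.16 in LL37 vs control (adjusted p = 0.759), and LL37 against LL37 + RAPA gave −0.03 ± 0.15 (adjusted p = 0.892, edgeR). Pycard (chromosome 7, 127989708 to 127993867, minus strand of mm10) shares 485 exonic bases with the antisense gene Gm45205, and reads from the unstranded kit cannot be told apart there. No other of the 10 genes shares exonic bases with another gene.

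Casp1 and Casp4 are neighbours on the plus strand of chromosome 9 (mm10 5298517 to 5307265 and 5308828 to 5336783), with 1562 bases between them. Caspase-1 is the effector of the classical inflammasome, and the product of mouse Casp4, also called caspase-11, binds lipopolysaccharide directly and cleaves gasdermin D. Their upstream sequences are shown because these neighbours had fold changes of unlike size (below), and that of Nlrp3 because its fold change was the largest. The letters are from RefSeq (GRCm38.p6) and end before the first annotated exon, and capitals mark matches on either strand to the NF-kB motif (3 G bases, any 5 bases, 2 C bases), overlapping matches joined.

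Casp1 (chr9:5298267-5298516, plus strand): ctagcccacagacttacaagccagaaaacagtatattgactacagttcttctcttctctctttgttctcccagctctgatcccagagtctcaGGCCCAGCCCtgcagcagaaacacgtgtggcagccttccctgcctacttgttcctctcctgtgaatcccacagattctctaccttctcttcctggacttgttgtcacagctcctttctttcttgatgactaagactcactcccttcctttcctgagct
Casp4 (chr9:5308599-5308827, plus strand): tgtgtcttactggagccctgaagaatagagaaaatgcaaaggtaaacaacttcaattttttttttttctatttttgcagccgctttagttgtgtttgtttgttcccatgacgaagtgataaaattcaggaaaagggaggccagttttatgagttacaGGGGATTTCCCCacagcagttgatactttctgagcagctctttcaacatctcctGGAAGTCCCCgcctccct
Nlrp3 (chr11:59541319-59541567, plus strand): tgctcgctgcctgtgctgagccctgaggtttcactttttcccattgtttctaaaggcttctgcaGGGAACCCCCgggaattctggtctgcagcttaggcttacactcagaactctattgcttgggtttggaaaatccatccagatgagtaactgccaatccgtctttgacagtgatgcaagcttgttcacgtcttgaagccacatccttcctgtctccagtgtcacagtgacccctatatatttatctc

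RefSeq promoters were at hand for 7 of the 10 genes (not for Gsdmd, Gsdma and Nlrp10). Within 250 bases before a start, the NF-kB motif was found in 3 of the 7, namely Casp1, Casp4 and Nlrp3, and in 48.7% of all 27025 genes with a promoter, so its presence does not set the members apart. Nlrp3 and Casp4 have 2 RefSeq starts each. The other window of Nlrp3 (chr11:59542436-59542685) held no match. The 2 windows of Casp4 largely overlap and hold the same matches. The run of 12 capitals in Casp4 holds 3 overlapping matches. The interferon response motif (GAAA, any 2 bases, GAAA) was found in 0 of the 7 (3.46% of all genes) and TGANTCA, the AP-1 motif, in 0 of the 7 (7.82%). Such a match is a match of letters, and no binding was measured.

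Casp4 was at 10.8, 9.43 and 8.96 CPM in control, 8.08, 8.10 and 9.27 CPM in control + RAPA, 50.1, 34.7 and 14.9 CPM in LL37, and 12.8, 17.0 and 13.3 CPM in LL37 + RAPA. All LL37 libraries lay above control, and LL37 replicate 3 lay among the LL37 + RAPA libraries. The log2 fold change of LL37 vs control was 1.77 ± 0.33 (adjusted p = 0.00131, edgeR), which is 3.42-fold, and it stayed past the threshold in 20 of 20 alternatives. LL37 exceeded LL37 + RAPA by 1.21 ± 0.32 (adjusted p = 0.0203, edgeR), a call that 5 of 20 alternatives lost. Without LL37 replicate 1 that difference was 0.78 with adjusted p = 0.0968, the highest of its alternatives, the lowest being 8.92e-05.

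Casp1 moved less. It was at 18.7, 16.7 and 13.5 CPM in control, 13.6, 13.4 and 13.4 CPM in control + RAPA, 32.2, 21.0 and 21.95 CPM in LL37, and 14.2, 20.8 and 15.5 CPM in LL37 + RAPA. LL37 did not overlap either group, though LL37 replicate 2 and LL37 + RAPA replicate 2 differed by less than 1 CPM. The log2 fold change was 0.62 ± 0.19 in LL37 vs control (adjusted p = 0.0225, edgeR), lost in 4 of 20 alternatives, and 0.57 ± 0.19 against LL37 + RAPA (adjusted p = 0.0496, edgeR), lost in 14 of 20. Without LL37 replicate 1 these were 0.40 (adjusted p = 0.113) and 0.35 (adjusted p = 0.223), the highest of ranges that start at 0.00813 and 0.0244.

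The ratio of Casp4 to Casp1 in CPM was 0.564 to 0.664 in control and 0.594 to 0.691 in control + RAPA. In LL37 it was 1.56, 1.65 and 0.680, and in LL37 + RAPA 0.817 to 0.903. The LL37 ratios lay above all control ratios, by a narrow margin in replicate 3, with p = 0.1 in a two-sided exact permutation test, the smallest p that 3 against 3 allows. Against LL37 + RAPA the exact permutation p was 0.4. In the plot of library values beside the marker lists, the 2 high ratios are those of the 2 LL37 libraries richest in neutrophil markers.

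Gasdermin D, the pore-forming substrate of both caspases, rose in LL37 in a more even way. Gsdmd was at 26.0, 20.1 and 25.9 CPM in control, 16.05, 17.4 and 21.9 CPM in control + RAPA, 47.5, 45.6 and 34.2 CPM in LL37, and 25.5, 29.1 and 28.1 CPM in LL37 + RAPA. Each LL37 library lay above each library of the other groups. In LL37 vs control it rose by 0.82 ± 0.16 on the log2 scale (adjusted p = 0.00167, edgeR), called in 20 of 20 alternatives. LL37 was higher than LL37 + RAPA by 0.62 ± 0.16 (adjusted p = 0.0164, edgeR), lost in 3 of 20 alternatives.

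**Figure D3:**
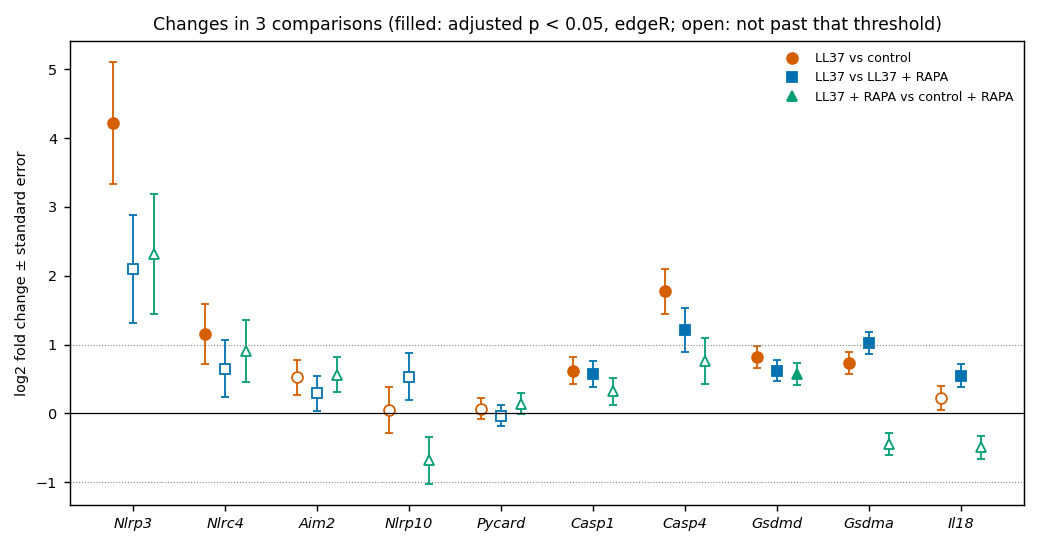
Log2 fold change with its standard error (vertical) for each of the 10 genes (horizontal) in LL37 vs control (circles), LL37 vs LL37 + RAPA (squares) and LL37 + RAPA vs control + RAPA (triangles); filled symbols have an adjusted p under 0.05 (edgeR, 3 libraries per group) and dotted lines mark log2 fold changes of 1 and −1. Gsdma (0.74 and −0.45) and Il18 (0.22 and −0.49) have opposite signs in the circles and the triangles, where Gsdmd (0.82 and 0.58) and Casp4 (1.77 and 0.76) have the same sign.

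Gasdermin A, which is made mainly in the epidermis, had the smallest p of the 10 genes in LL37 vs LL37 + RAPA. Gsdma (chromosome 11, 98664351 to 98677708, plus strand of mm10) was at 52.2, 71.9 and 70.2 CPM in control, 67.3, 74.3 and 75.3 CPM in control + RAPA, 119, 83.2 and 122 CPM in LL37, and 57.6, 47.4 and 54.1 CPM in LL37 + RAPA. The LL37 libraries were the 3 highest of the 12, and the LL37 + RAPA libraries lay below all control + RAPA libraries but overlapped control. LL37 exceeded control by 0.74 ± 0.16 on the log2 scale (adjusted p = 0.00316, edgeR) and LL37 + RAPA by 1.03 ± 0.16 (adjusted p = 0.00210, edgeR), a 2.04-fold difference. Each of the 20 alternatives kept both calls, with ranges of 0.60 to 0.93 and 0.93 to 1.19. With RAPA in both groups the LL37 difference had the opposite sign, −0.45 ± 0.16 (adjusted p = 0.0746, edgeR).

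The test of the difference itself, the LL37 effect under RAPA minus that without RAPA, gave −1.18 ± 0.22 for Gsdma (adjusted p = 0.0246, edgeR). It was the only one of the 10 genes called in this interaction, where 3.28% of all tested genes were called, and 1 of 10 was called by DESeq2 as well. The value stayed between −1.35 and −1.04 in 19 alternatives, of which 8, each without 1 library, gave adjusted p above 0.05, in a range of 0.000180 to 0.0739. Basal keratinocyte markers moved in part with Gsdma, at 2.15 to 2.22% of counts in LL37 and 1.55 to 1.74% in LL37 + RAPA. In control + RAPA they took 1.14 to 1.39%. The 8 differentiated keratinocyte markers took 1.88 to 2.33% in control, 1.98 to 2.22% in control + RAPA, 2.06%, 1.45% and 2.94% in LL37 and 1.75 to 1.99% in LL37 + RAPA. The part of either list in the Gsdma result was not tested.

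The paralogs of Gsdma lie in the same gene cluster and resemble it in sequence, so reads may be split between them. Gsdma3 was at 5.01 to 8.66 CPM in control and 5.46 to 7.48 CPM in LL37, and its log2 fold changes were −0.06 ± 0.33 in LL37 vs control (adjusted p = 0.892), and LL37 against LL37 + RAPA gave −0.39 ± 0.33 (adjusted p = 0.413, edgeR). Gsdma2 had 0 to 12 counts in any library and did not pass the filter.

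Il18, the cytokine that caspase-1 matures and that drives interferon-γ production by lymphocytes, was at 24.2, 33.8 and 29.3 CPM in control and 32.1, 35.8 and 30.3 CPM in control + RAPA. In LL37 it was at 38.0, 25.6 and 38.3 CPM and in LL37 + RAPA at 26.1, 22.8 and 20.9 CPM. LL37 replicate 2 lay among the control libraries and below LL37 + RAPA replicate 1. LL37 vs control did not pass the test, with a log2 fold change of 0.22 ± 0.17 (adjusted p = 0.313, edgeR). LL37 exceeded LL37 + RAPA by 0.55 ± 0.17 (adjusted p = 0.0367, edgeR), a call lost in 10 of 20 alternatives, whose adjusted p ran from 0.0115 to 0.136. The interaction for Il18 was −0.72 ± 0.24 (adjusted p = 0.111, edgeR).

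Other genes of the interleukin-18 system were called in LL37 vs control, where the ligand was not; the difference between the genes was not tested. Il18bp, the secreted inhibitor that binds interleukin-18, was at 6.74, 4.72 and 7.01 CPM in control and 13.7, 9.01 and 7.77 CPM in LL37. It was at 3.45 to 4.35 CPM in control + RAPA, below every control library, and at 4.05 to 4.28 CPM in LL37 + RAPA. Il18bp rose by 0.72 ± 0.23 in LL37 vs control (adjusted p = 0.0229) and was 1.28 ± 0.23 higher in LL37 than in LL37 + RAPA (adjusted p = 0.00376, edgeR). With RAPA in both groups the LL37 difference was 0.15 ± 0.23 (adjusted p = 0.731, edgeR). Il18rap, the accessory chain of the receptor, was at 0.666 to 3.79 CPM in control and 31.2, 48.4 and 8.53 CPM in LL37, a log2 fold change of 3.61 ± 0.68 (adjusted p = 0.00137, edgeR), and Il18r1, the ligand-binding chain, had 1.299 ± 0.36 (adjusted p = 0.0130, edgeR), with LL37 replicate 3 (5.37 CPM) within the control range of 3.53 to 5.90 CPM. Against LL37 + RAPA neither passed the test, with 1.41 ± 0.60 for Il18rap (adjusted p = 0.106) and 0.63 ± 0.35 for Il18r1 (adjusted p = 0.206, edgeR). These 3 genes are on the pathway list and were picked for naming after their values were seen. The ratio of Il18 to Il18bp in CPM was 3.59 to 7.16 in control and 2.78 to 4.93 in LL37 (two-sided exact permutation p = 0.3). In control + RAPA it was 8.24 to 9.11 and in LL37 + RAPA 4.87 to 6.19.

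To set different genes side by side, levels were divided by the union of all annotated exons of a gene. This union was 3800 bases for Pycard and 3710 bases for Casp4. Where the transcripts present are shorter than the union, the level per kb is too low, so the order depends in part on the annotation. In control skin, Il18 and Gsdma were the highest of the 10 genes by this measure. They were at 28.2 ± 4.65 and 23.8 ± 4.01 CPM per kb (SD, n = 3). Casp1, Gsdmd and Nlrp10 followed at 10.9, 10.1 and 9.11 CPM per kb and Pycard at 5.49. Casp4 was at 2.62, Aim2 at 1.34, Nlrp3 at 0.672 and Nlrc4 at 0.228 CPM per kb. Among neighbours in this order, Il18 and Gsdma, Casp1 and Gsdmd, Gsdmd and Nlrp10, Aim2 and Nlrp3, and Nlrp3 and Nlrc4 overlapped between libraries. In LL37 the order was led by Gsdma at 39.6 ± 7.93 and Il18 at 32.9 ± 7.02 CPM per kb, and Nlrp3 had moved from rank 9 to rank 5, at 12.5 ± 9.49, a range of 1.99 to 20.4 that overlapped 6 of the other genes. The order of the levels was led by Il18 in control, control + RAPA and LL37 + RAPA, and by Gsdma in LL37.

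In LL37 + RAPA vs control, 0 of the 10 genes were called by edgeR and 0 by DESeq2, with 1 at an unadjusted p under 0.05, where 14.0% of all genes were called. The 1 was Nlrp3 (2.12 ± 0.85, adjusted p = 0.130, edgeR), whose LL37 + RAPA libraries all lay above control. Without LL37 replicate 3, 2 of the 10 were called. That library is in neither group, but the fit without it redid the filter, scaling, estimate of spread and adjustment. The 14.0% does not apply to that fit. In control + RAPA vs control, 0 of the 10 were called by edgeR and 0 by DESeq2, and 1 had an unadjusted p under 0.05 (Gsdmd, −0.38 ± 0.16, adjusted p = 0.552, edgeR), where 0% of all genes were called.

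LL37 + RAPA vs control + RAPA shares no library with LL37 vs control and asks what LL37 did when both groups had RAPA. Here Gsdmd was called, at 0.58 ± 0.16 (adjusted p = 0.0257, edgeR), and no other member, where 18.6% of all genes were called. Leaving out any of control + RAPA replicates 1 and 2 or LL37 + RAPA replicates 2 and 3 ended this call, with adjusted p up to 0.0998 in a range from 0.00612. The libraries of the 2 groups did not overlap in 8 of the 10 genes (41.3% of all genes), with Nlrp3 (2.32), Casp4 (0.76), Gsdmd, Aim2 (0.56) and Casp1 (0.32) higher and Nlrp10 (−0.68), Il18 (−0.49) and Gsdma (−0.45) lower in LL37 + RAPA. Apart from Gsdmd their adjusted p ran from 0.0654 to 0.301. DESeq2 called 2 of the 10, and a fit of these 2 groups alone called 6. The 18.6% belongs to the reported edgeR fit, and no share over all genes was taken for these other fits.

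Of 45 other genes listed for the pathway, 39 were tested (not Gsdma2, Gsdmc3, Gsdmc4, Naip1, Nlrp1a and Nlrp6). In LL37 vs control 28 were called, 27 higher and 1 lower, and 24 passed the fold limit, 23 higher and 1 lower. Over all tested genes, as given above, 42.6% were called, 21.0% called higher and 19.5% past the fold limit. The median log2 fold change was 1.25 over the 39 genes and −0.005 over all genes. The LL37 and control libraries did not overlap in 24 of the 39 genes, against 49.7% of all genes. All 10 cytokines and receptors of the list were called higher, 9 of them past the fold limit, with a median of 1.40. In 7 of these 10 the libraries did not overlap. Of the sensors and regulators 11 of 18 tested rose and 1 fell, of the other caspases 3 of 6 rose, and of the other gasdermins with Ninj1, which ruptures the membrane after pore formation, 3 of 5 rose. In LL37 vs LL37 + RAPA, 19 of the 39 were higher in LL37 and 1 was lower, with 13 and 1 past the fold limit, where 24.2% of all genes were called, 11.8% called higher and 10.1% past the limit. Without LL37 replicate 1 the 20 calls became 11, and without LL37 + RAPA replicate 1 they became 12.

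**Figure D4:**
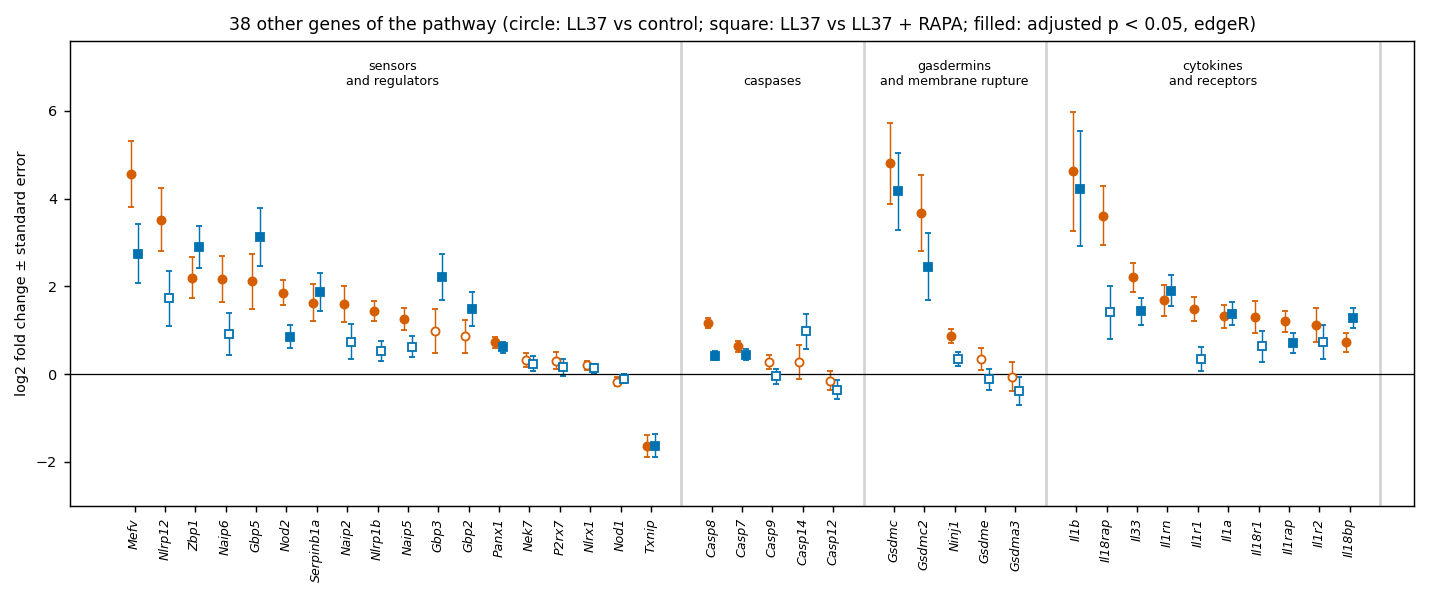
Log2 fold change with its standard error (vertical) for 38 of the 39 tested genes of the wider pathway (horizontal, by list) in LL37 vs control (circles) and LL37 vs LL37 + RAPA (squares); filled symbols have an adjusted p under 0.05 (edgeR, 3 libraries per group). The 10 cytokines and receptors are all filled circles above 0, and Txnip is the 1 filled gene below 0 in both comparisons (−1.65 and −1.63).

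Casp8, Il33 and Nod2 were among the genes of this list with the smallest p that rose past the fold limit. Casp8, the initiator of death-receptor apoptosis, was at 22.8 to 26.3 CPM in control and 51.2 to 61.7 CPM in LL37, a log2 fold change of 1.17 ± 0.11 (adjusted p = 1.38e-05, edgeR). LL37 replicate 3 was the lowest LL37 library for Casp8, yet above every control library. Il33, an alarmin of the interleukin-1 family, rose by 2.20 ± 0.33 on the log2 scale (adjusted p = 0.000323) and Nod2, a sensor of bacterial muramyl dipeptide, by 1.86 ± 0.28 (adjusted p = 0.000356, edgeR). Txnip, a binding partner of thioredoxin, was the 1 gene that fell, from 1205 to 1538 CPM in control to 363 to 520 CPM in LL37, and was at 1304 to 1586 CPM in LL37 + RAPA. Its log2 fold change was −1.65 ± 0.25 (adjusted p = 0.000410, edgeR).

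The interleukin-1 ligands that act beside Il18 differed in how even they were. Il1b, a myeloid ligand matured by caspase-1, was at 1.62, 0.461 and 20.0 CPM in control, 289, 236 and 17.0 CPM in LL37 and 2.56, 16.6 and 9.69 CPM in LL37 + RAPA, so LL37 replicate 3 lay below 1 control library. Il1a, stored by keratinocytes, was at 7.71 to 8.90 CPM in control, 11.6 to 13.0 CPM in control + RAPA, 31.8, 12.4 and 17.6 CPM in LL37 and 7.29 to 8.38 CPM in LL37 + RAPA. LL37 did not overlap control or LL37 + RAPA, but LL37 replicate 2 lay within the control + RAPA range, and control + RAPA lay above all control libraries. Il1a was the 1 of the 39 genes called in the interaction, at −1.93 ± 0.38 (adjusted p = 0.0279, edgeR). Over all tested genes 3.28% were called there, so this count does not set the 39 genes apart. No other gene beside Gsdma was called in the interaction in either list. Among gasdermins, Gsdmc was chosen for naming after its values were seen. It was at 0.539, 0.666 and 8.06 CPM in control, 121, 89.6 and 48.8 CPM in LL37 and 1.76, 7.33 and 5.18 CPM in LL37 + RAPA, with a log2 fold change of 4.80 ± 0.92 in LL37 vs control (adjusted p = 0.00158) and 4.17 ± 0.88 against LL37 + RAPA (adjusted p = 0.00732, edgeR). Gsdmc has near-identical neighbours, Gsdmc2 among them, whose reads may be divided with it.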

How the data were processed

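Whole skin RNA was sequenced in 12 libraries from an unstranded TruSeq kit. The deposited table holds raw counts per Ensembl gene that the authors made from paired-end reads, without normalization or pooling. The submitters' processing notes list mm10, HISAT2 2.0.5, StringTie 1.3.3b, featureCounts 1.5.0-p3 and DESeq2 1.16.1, whereas the study's methods name HTSeq 0.6.0 and DESeq 1.10.1, so the counter is not settled. Gene names, positions and exon lengths are from GENCODE M21 and promoters from RefSeq, both on GRCm38.

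One model over all 12 libraries was fitted in R 4.3.3 with edgeR 4.0.16 (TMM, filterByExpr, quasi-likelihood test, Benjamini-Hochberg adjustment over 17993 genes). Calls need an adjusted p under 0.05, and the fold limit is an absolute log2 fold change over 1. Log2 CPM used a prior count of 2. The script was tested on simulated data. Within groups, chi-square per gene between libraries was 13.2 to 65.4, far above 1, so each library was counted as a sample of its own.

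The genes, marker lists and pathway lists were chosen with earlier results of these data known. The pathway genes named are the 4 with the smallest p in each direction past both limits, with Gsdma2, Gsdma3, Il1a and Il1b; 1 of them is not reported here. Alternatives were other scalings, filters, DESeq2 1.42.0, the compared groups only, a replicate block and each library left out.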

Additional observations from a re-analysis of the deposited data

Results flagged for a closer look

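Gsdma drew attention because the LL37 effect differed between mice with and without RAPA by a test of that difference. The interaction was −1.18 ± 0.22 on the log2 scale (adjusted p = 0.0246, edgeR quasi-likelihood test), from an LL37 difference of 0.74 without RAPA and −0.45 with it. The difference of −0.45 was not itself called (adjusted p = 0.0746, edgeR). The interaction call was lost in 8 of 19 alternatives, each without 1 library. All 3 LL37 libraries lay above all 3 control libraries, and all 3 LL37 + RAPA libraries lay below all 3 control + RAPA libraries. In groups of 3 no single library was tested for standing apart.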

How the results depend on the processing

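In LL37 vs control the 6 members called became 4 with the compared groups only and 5 with the replicate block. They became 5 with the muscle markers removed before scaling and 5 with each of the other filters. With a library left out they were 4 to 6 (4 without control replicate 2 and 4 without control replicate 3). In LL37 vs LL37 + RAPA the 5 members called became 3 with scaling by library size only, 2 with the compared groups only and 3 with the replicate block, and 1 to 5 with a library left out (1 without LL37 replicate 1 and 1 without LL37 + RAPA replicate 1). The 2 past the fold limit became 1 with library size only, 1 with the compared groups only and 0 to 2 with a library left out, 0 without LL37 replicate 1. In LL37 + RAPA vs control the 0 became 2 with the compared groups only and 0 to 2 with a library left out (2 without LL37 replicate 3). In LL37 + RAPA vs control + RAPA the 1 became 2 with library size only, 2 with a filter of 1 count in total, 2 with DESeq2 and 6 with the compared groups only, and 0 to 4 with a library left out (4 without LL37 replicate 3). In the interaction the 1 became 0 to 2 (2 without LL37 replicate 3). With a library left out, Pycard ran from −0.055 to 0.19 in LL37 vs control and −0.19 to 0.079 in LL37 vs LL37 + RAPA, and Nlrp10 from −0.54 to 0.41 and −0.091 to 0.86, the lowest each time without LL37 replicate 3. The cause of these changes was not tested, beyond the fewer libraries that some fits hold. Shares of all genes called were taken only from the reported edgeR fit, so the member counts of the other fits have no such share beside them. Libraries with the same replicate number did not deviate together more than others (same-number correlations −0.188 to 0.263, other numbers −0.303 to 0.277). With 3 libraries per group these correlations cannot exclude a pairing. The call that the replicate block ended in LL37 vs control was that of Nlrc4. Scaling by library size only moved the median of all genes by 0.127 in LL37 + RAPA vs control, where the genes past the fold limit went from 386 higher of 1168 to 559 of 1253, and by 0.186 in LL37 + RAPA vs control + RAPA, from 733 of 1510 to 1076 of 1717. Depth limits Nlrc4 most, at 8 to 50 counts per library.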
